A study of Homo sapiens with 6 samples.

Results

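SLC4A7 and 6 other genes that move acid, bicarbonate or sodium across the cell membrane were followed in RKO cells, a human colon carcinoma line. The genes are SLC4A7, SLC4A2, SLC16A1, SLC16A3, CA2, CA12 and ATP1B1. They were taken by symbol from the authors' annotated table, in which they have 19 of the 37458 probe sets that name 1 gene. All 7 are among the 15894 genes tested, and no member was lost to a filter. The level of a gene is that of its brightest probe set over the 6 arrays, and the others are given beside it. SLC4A7 is also a gene that the paper picked from these arrays for qRT-PCR, so its direction here is not independent of that choice.

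The shCIRC cells (3 arrays) carried a short hairpin RNA against the circular RNA hsa_circ_0064559, and the shEV cells (3 arrays) carried the control vector. The labels call shEV an empty vector and also give a nonsense hairpin for it. Both groups were RKO cells transfected by lipofection and grown in DMEM with fetal bovine serum, which the study kept in culture to obtain stable lines with partial transfection. Each group is 1 construct in 1 cell line, and the labels do not say whether its 3 samples were separate cultures, so each p-value reflects only how far these samples spread, and that spread may be technical. The hairpin inserts are shown because they are the only difference that the labels give between the groups.
shCIRC insert: tttattatagcctgccacagc
shEV insert: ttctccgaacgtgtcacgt

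A cell that burns glucose quickly makes lactate and protons, and it keeps its cytoplasm near neutral by sending acid out and taking bicarbonate in. Sodium-coupled bicarbonate carriers of the SLC4 family bring base in, monocarboxylate transporters of the SLC16 family carry lactate together with a proton, and carbonic anhydrases interconvert carbon dioxide and bicarbonate on either side of the membrane. The sodium pump, an alpha and a beta subunit maintains the sodium gradient that the sodium-coupled carriers use. In colon tumors these proteins are studied because they let cells grow in an acid environment.

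Of the 7 genes, 5 were lower in shCIRC than in shEV (SLC4A7, CA2, ATP1B1, SLC4A2 and SLC16A3), 1 was higher (SLC16A1) and 1 did not pass the test (CA12). The test was limma, with p-values adjusted by Benjamini-Hochberg across the genes and called at an adjusted p under 0.05. In this comparison 47.5% of all genes passed, 24.7% lower and 22.8% higher, so passing alone does not set a gene apart. The share that passed was larger among brighter genes when these were fitted alone. That fit, on the genes above the median brightness, which include all 7 genes followed here, called 3055 higher and 3078 lower. It estimated its own variance and adjustment, so it does not give the share of these genes in the main fit. Most genes as bright as the 7 passed in it, so the count of calls among the 7 does not set them apart. The median log2 difference, shCIRC minus shEV, was -0.18 over the 7 genes and close to 0 over all genes (-0.0045), and the median size of the difference was 0.19 and 0.13. The 7 genes were chosen with earlier results of these data known, so this contrast is not independent of those results. SLC4A7, CA2 and ATP1B1 also differed by a fold above 1.3, as did 16.9% of all genes with an adjusted p under 0.05. In an alternative called median centring here, every array was centred on the median of its 15894 gene values. The calls over all genes then moved from 3618 higher and 3928 lower (47.9% higher) to 5059 higher and 3000 lower (62.8% higher). Centring adds the same amount to the difference of every gene, and the median difference over all genes became 0.066. That median was 0.0055 after a further quantile normalization and 0.0014 with cyclic loess. Among the 7 genes, median centring left SLC4A7, CA2 and ATP1B1 as the 3 lower calls and gave 2 higher calls, SLC16A1 and CA12.

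**Figure D1:**
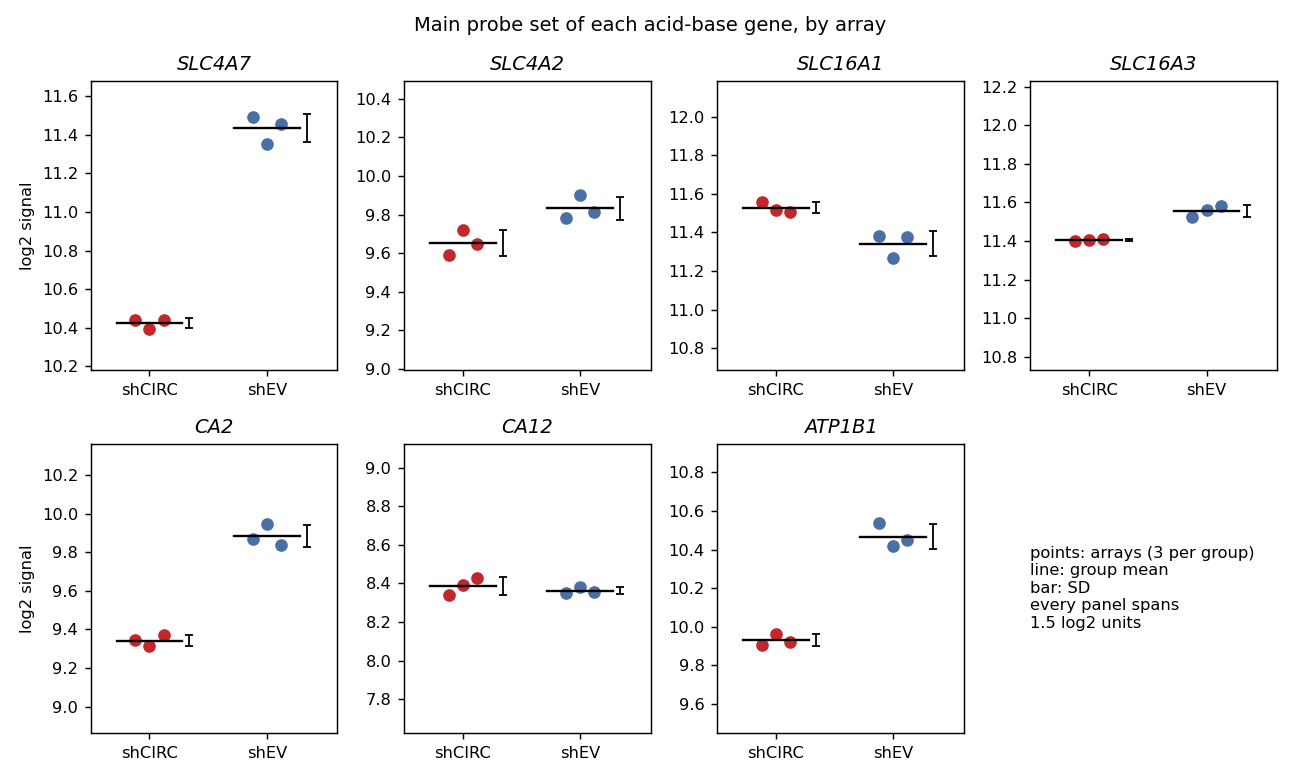
Log2 signal (y axis) of the brightest probe set of each of the 7 genes on the 3 shCIRC arrays (left) and the 3 shEV arrays (right). The lines are group means and the bars SD. The groups overlap for CA12 only, and SLC4A7 has the widest gap, with 10.4 ± 0.03 in shCIRC and 11.4 ± 0.07 in shEV (SD, n = 3 each).

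SLC4A7 encodes NBCn1, an electroneutral sodium bicarbonate cotransporter that brings base into the cell. Its log2 signal was 10.44, 10.39 and 10.44 on the 3 shCIRC arrays, against 11.49, 11.35 and 11.46 on the 3 shEV arrays. The groups did not overlap, as was the case for 56% of all genes, and the lowest shEV array lay above the highest shCIRC array by far more than the spread within either group. The log2 difference was -1.01 (standard error 0.04, 95% interval -1.12 to -0.91, adjusted p = 8.1e-06 from limma), so the shCIRC signal was 0.496 of the shEV signal. Of all genes, 126 (0.793%), SLC4A7 included, had a log2 difference this low or lower.

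The second probe set of SLC4A7 gave a larger fall. It read 9.23, 9.28 and 9.30 in shCIRC, against 10.50, 10.52 and 10.51 in shEV, a log2 difference of -1.24 (standard error 0.03, adjusted p = 2.9e-06 from limma over all probe sets). The 95% intervals of the 2 probe sets, -1.12 to -0.90 and -1.32 to -1.16 in the fit over all probe sets, did not overlap. The brighter one carries the array's suffix for probes shared by several transcripts. The deposited annotation aligns it to chromosome 3, band p24.1, from 27414213 to 27498245 on the minus strand, and aligns the dimmer one from 27417407 to 27525838. The build behind these coordinates and the exons that the probes cover were not given in the sources used here.

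Measured genes next to SLC4A7 on chromosome 3, looked up after its values were seen, had differences between -0.06 and 0.15. OXSM, an enzyme of mitochondrial fatty acid synthesis at band p24.2, was higher in shCIRC, with a log2 difference of 0.15 (standard error 0.03, adjusted p = 0.0097 from limma). EOMES, a T-box transcription factor at p24.1, had a log2 difference of 0.08 and did not pass (adjusted p = 0.22 from limma). NGLY1, which removes sugar chains from misfolded proteins, and CMC1, a mitochondrial assembly factor, had -0.06 and -0.04 and did not pass (adjusted p = 0.21 and 0.61 from limma).

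The promoter window around the start of SLC4A7 is shown beside those of ATP1B1, which also fell, and of SLC16A3, a known target of the hypoxia-inducible factor. The windows come from RefSeq (GRCh38.p14), with 250 bases before and 50 after an annotated start, and windows of 5 of the 7 genes were used, those of SLC16A1 and CA2 not. Capitals mark, on either strand, ACGTG (1 form of the core that hypoxia-inducible factors bind), CCAAT (the CCAAT box) and GGGCGG (the GC box). GCGTG, another form of that core, was not marked or counted, and the SLC4A7 window holds it. No base in the printed windows belongs to more than 1 match.
SLC4A7, chr3:27484335-27484634, minus strand: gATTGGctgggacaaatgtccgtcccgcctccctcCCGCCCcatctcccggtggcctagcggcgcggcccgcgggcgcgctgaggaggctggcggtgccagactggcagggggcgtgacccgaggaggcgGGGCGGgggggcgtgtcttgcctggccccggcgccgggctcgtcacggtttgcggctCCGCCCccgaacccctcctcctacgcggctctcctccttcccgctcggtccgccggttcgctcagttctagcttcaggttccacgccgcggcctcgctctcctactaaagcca
ATP1B1, chr1:169106440-169106739, plus strand: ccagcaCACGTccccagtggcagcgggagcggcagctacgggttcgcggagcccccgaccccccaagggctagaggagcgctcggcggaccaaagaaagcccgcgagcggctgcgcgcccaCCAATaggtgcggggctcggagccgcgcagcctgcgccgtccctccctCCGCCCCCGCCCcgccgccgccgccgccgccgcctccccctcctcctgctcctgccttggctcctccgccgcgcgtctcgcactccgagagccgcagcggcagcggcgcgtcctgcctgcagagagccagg
SLC16A3, chr17:82228792-82229091, plus strand: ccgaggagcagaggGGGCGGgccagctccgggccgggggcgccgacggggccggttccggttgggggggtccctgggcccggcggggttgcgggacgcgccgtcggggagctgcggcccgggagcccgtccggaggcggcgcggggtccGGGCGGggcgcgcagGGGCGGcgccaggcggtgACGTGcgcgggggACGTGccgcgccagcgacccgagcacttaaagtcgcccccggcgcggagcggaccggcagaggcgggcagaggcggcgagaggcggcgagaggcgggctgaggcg
ACGTG was present in 21.4%, CCAAT in 34.6% and GGGCGG in 45% of all 35116 such windows. The SLC4A7 window held 0 copies of ACGTG, 1 of CCAAT and 3 of GGGCGG, the ATP1B1 window 1, 1 and 2 in the same order, and the SLC16A3 window 2, 0 and 3. RefSeq gives 13 such windows for the 5 genes, and these 3 were chosen after their motifs were counted. A match is a description of the letters, and the arrays hold no measure of binding.

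SLC4A2 (chromosome 7, 150756667 to 150773614, plus strand, band q36.1) encodes AE2, which exchanges bicarbonate for chloride and so works in the direction that acidifies the cell. Its log2 signal was 9.59, 9.72 and 9.65 in shCIRC, against 9.78, 9.90 and 9.81 in shEV. Every shCIRC array lay below every shEV array, by a small margin. The log2 difference was -0.18 (standard error 0.05, 95% interval -0.30 to -0.07, adjusted p = 0.020 from limma). The call was lost without shCIRC replicate 1 (log2 difference -0.15, adjusted p = 0.056), without shCIRC replicate 3 (-0.18, adjusted p = 0.054) and without shEV replicate 2 (-0.15, adjusted p = 0.061 from limma), and with median centring (-0.11, adjusted p = 0.098). Of the other 2 probe sets of SLC4A2, 1 had a log2 difference of -0.11 (adjusted p = 0.11) and the dimmest, which the annotation aligns to the opposite strand, had 0.01 (adjusted p = 0.88 from limma on the probe sets). Neither passed.

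Within each array, the signal of SLC4A7 was set against that of SLC4A2, a difference that does not move with the centring of an array. It was 0.85, 0.67 and 0.79 log2 units in shCIRC and 1.71, 1.45 and 1.64 in shEV. The gap was narrower on every shCIRC array, with a change of -0.83 (standard error 0.09; two-sided exact permutation p = 0.1, the smallest that 3 arrays against 3 allow, and adjusted p = 0.1 over the 3 pairs compared). The 2 transporters thus changed unequally, by several times the spread between arrays, in a design that cannot reach an exact p under 0.05.

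**Figure D2:**
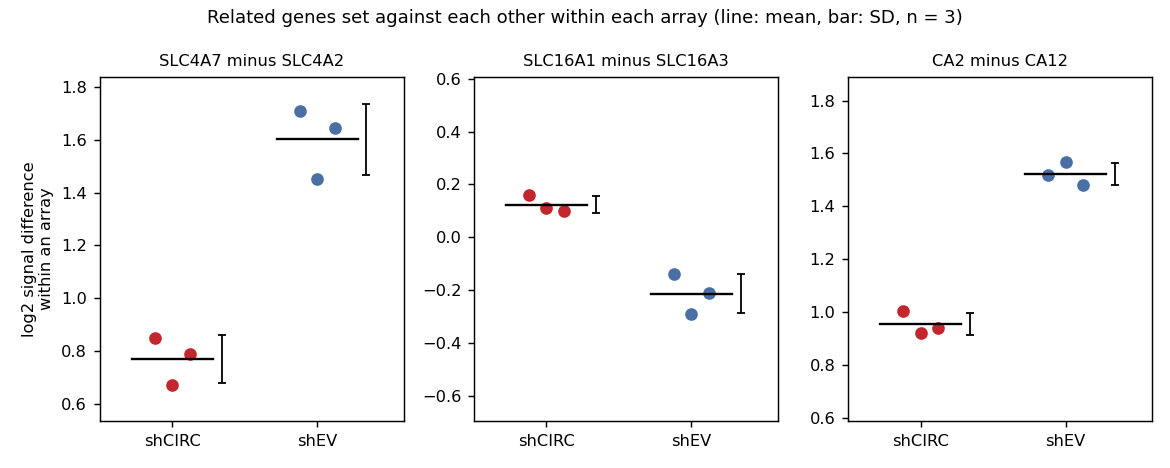
Log2 signal difference within an array (y axis) between related genes, for the 3 shCIRC arrays (left) and the 3 shEV arrays (right) of each panel. Lines are means and bars SD. In all 3 pairs the groups lie apart, with SLC16A1 minus SLC16A3 higher in shCIRC and the other pairs lower. The position of 0 carries no meaning, because the probe sets of 2 genes differ in brightness.

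The 2 monocarboxylate transporters moved in opposite directions and by little. SLC16A1 (chromosome 1, 113454468 to 113498975, minus strand, band p13.2) encodes MCT1, which carries lactate and pyruvate with a proton in either direction. Its log2 signals were 11.56, 11.52 and 11.51 in shCIRC, against 11.38, 11.27 and 11.37 in shEV, a log2 difference of 0.19 (standard error 0.04, adjusted p = 0.0086 from limma). All shCIRC arrays were above all shEV arrays. The second probe set of SLC16A1 was higher in shCIRC by more, with a log2 difference of 0.42 (standard error 0.05, adjusted p = 4.6e-04 from limma over all probe sets).

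SLC16A3 (chromosome 17, 80186281 to 80197615, plus strand, band q25.3) encodes MCT4, the lactate exporter of glycolytic cells. On the log2 scale it read 11.40, 11.40 and 11.41 in shCIRC, against 11.52, 11.56 and 11.58 in shEV, so that the shCIRC arrays were almost level and all below shEV. The log2 difference was -0.15 (standard error 0.03, adjusted p = 0.0055 from limma), and it was -0.08 with median centring, where the call was lost (adjusted p = 0.052). A second probe set had -0.14 and passed, while the third had 0.03 (adjusted p = 0.52 from limma on the probe sets) and its groups overlapped. SLC16A1 minus SLC16A3 within an array was 0.16, 0.11 and 0.10 in shCIRC and -0.14, -0.29 and -0.21 in shEV. It was higher in shCIRC by 0.34 (standard error 0.05; two-sided exact permutation p = 0.1, the smallest possible, and adjusted p = 0.1 over the 3 pairs).

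The carbonic anhydrases differed from each other. CA2, the fast cytosolic enzyme (chromosome 8, 86376130 to 86393721, plus strand, band q21.2), had a log2 signal of 9.34, 9.31 and 9.37 in shCIRC, against 9.87, 9.95 and 9.84 in shEV. The groups did not overlap, and the log2 difference was -0.54 (standard error 0.04, 95% interval -0.64 to -0.45, adjusted p = 5.3e-05 from limma), a shCIRC signal of 0.686 of that in shEV. CA2 has 1 probe set among the annotated ones that name 1 gene, so its fall has no second measurement here.

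CA12, an enzyme anchored in the plasma membrane with its active site outside the cell (chromosome 15, 63614615 to 63674659, minus strand, band q22.2), had a log2 signal of 8.34, 8.39 and 8.43 in shCIRC, against 8.35, 8.38 and 8.36 in shEV. The groups overlapped and the log2 difference was 0.02 (95% interval -0.06 to 0.11, adjusted p = 0.61 from limma). Its brightest probe set carries the suffix for probes that may bind other transcripts. The other 4 probe sets had log2 differences from -0.09 to 0.18 and none passed, including the highest of them (adjusted p = 0.058 from limma on the probe sets), whose groups did not overlap. CA2 minus CA12 within an array was 1.00, 0.92 and 0.94 in shCIRC and 1.52, 1.57 and 1.48 in shEV, a change of -0.57 (standard error 0.03; two-sided exact permutation p = 0.1, the smallest possible, and adjusted p = 0.1 over the 3 pairs).

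ATP1B1 (chromosome 1, 169075560 to 169101958, plus strand, band q24.2) encodes the beta-1 subunit of the sodium pump, which brings the catalytic alpha subunit to the plasma membrane. Its log2 signal was 9.91, 9.96 and 9.92 in shCIRC, against 10.54, 10.42 and 10.45 in shEV. The log2 difference was -0.54 (standard error 0.04, 95% interval -0.63 to -0.44, adjusted p = 6.5e-05 from limma). Across the 3 probe sets of ATP1B1 the fall was nearly the same, -0.54, -0.50 and -0.52, and all passed. Their intervals overlapped, unlike those of SLC4A7.

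**Figure D3:**
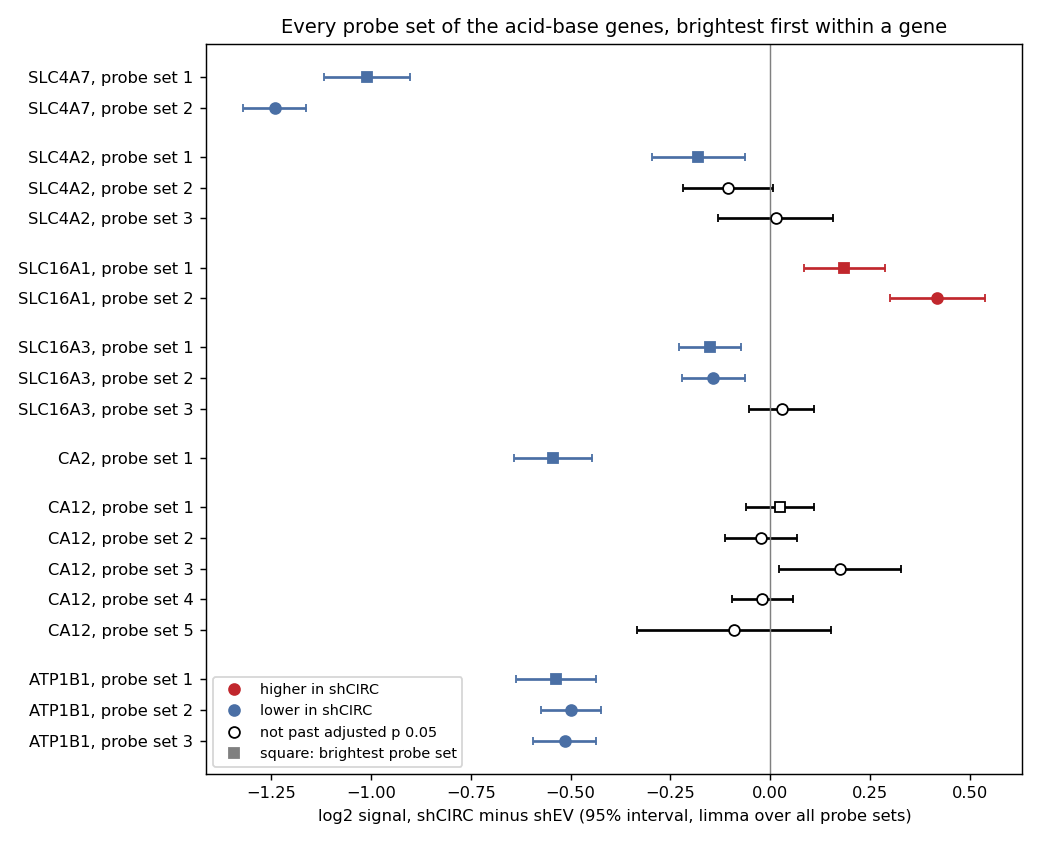
Log2 signal difference, shCIRC minus shEV, with its 95% interval (x axis, limma over all probe sets) for each of the 19 probe sets, grouped by gene with the brightest first (square). Filled marks passed an adjusted p of 0.05. SLC4A7, CA2 and ATP1B1 lie below -0.4 in every probe set, SLC16A1 lies above 0 in both, and the 5 of CA12 lie around 0.

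Over the 19 probe sets of the 7 genes, 9 were lower, 2 were higher and 8 did not pass, in a fit in which 50.3% of all probe sets passed. The probe sets that did not pass were all those of CA12, 2 of SLC4A2 and 1 of SLC16A3.

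Other genes of the same systems were taken from 6 lists. Of the 66 measured genes in them that are not among the 7, 18 were lower in shCIRC, 6 were higher and 42 did not pass. That is 36.4% passing, below the 47.5% of all genes, and their median log2 difference was -0.02. The lists hold dim genes, such as CA5A, which was brighter than 1.5% of all genes. Brightness was not matched between the 66 genes and all genes, so their shares are not directly comparable. Among the regulators, OXSR1 and STK39, the kinases that act below WNK1 on ion cotransporters, had log2 differences of -0.56 (adjusted p = 1.5e-05) and -0.32 (adjusted p = 6.0e-04 from limma), and AHCYL2, a relative of the NBC activator IRBIT, had -0.32. All of the 4 regulators that passed were lower, of 10 measured. AHCYL1, which encodes IRBIT itself, had 0.01 and did not pass in its brightest probe set (adjusted p = 0.72 from limma), while 3 of its 6 probe sets were higher in shCIRC by 0.26 to 0.29. AHCYL1 passed as higher with median centring (0.085, adjusted p = 0.041) and with the mean of its probe sets (0.16, adjusted p = 0.0017 from limma). For STK39 and AHCYL2 no other probe set passed.

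Among 12 measured SLC4 and SLC26 genes listed as bicarbonate transporters, 4 were lower and 2 were higher, SLC4A7 and SLC4A2 included. Not all genes of this list are established bicarbonate carriers, among them the 2 higher ones. SLC4A11 had a log2 difference of -0.23 and SLC4A8 had -0.19, while the anion exchangers SLC26A11 and SLC26A2 were higher, with 0.40 and 0.25. With median centring this list had 2 lower and 4 higher genes. Of 10 sodium-proton exchangers and their partners, 3 were lower and 1 was higher. CHP1, a cofactor of these exchangers, had a log2 difference of -0.30 (adjusted p = 7.9e-04 from limma), but its second probe set had 0.05 and did not pass, and SLC9A5 had -0.23.

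Of 16 monocarboxylate transporters, chaperones and lactate dehydrogenases, 6 were lower and 3 were higher, and with median centring 5 were lower and 5 higher. SLC16A10, an aromatic amino acid transporter of the family, read 7.63, 7.60 and 7.76 in shCIRC, against 8.49, 8.43 and 8.54 in shEV, a log2 difference of -0.82 (standard error 0.05, adjusted p = 3.2e-05 in the limma fit). SLC16A14 had -0.41, and its second probe set had -0.09 and did not pass. BSG, the chaperone that takes MCT1 and MCT4 to the membrane, had 0.14 (adjusted p = 0.012 from limma). Of its 6 probe sets 4 were higher and 1 was lower. LDHA, which turns pyruvate into lactate, was lower in all of its 4 probe sets and had a log2 difference of -0.30 in the brightest (standard error 0.03, adjusted p = 1.7e-04 from limma). LDHB and the chaperone EMB had 0.07 and 0.14 and did not pass (adjusted p = 0.11 and 0.14 from limma). With median centring both were higher, LDHB by 0.15 (adjusted p = 0.011) and EMB by 0.21 (adjusted p = 0.033). LDHB also passed after a further quantile normalization (0.11, adjusted p = 0.018), among the brighter genes alone (adjusted p = 0.035) and with limma's trend and robust options (adjusted p = 0.0022), and EMB passed without shEV replicate 3 (0.21, adjusted p = 0.023).

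Of 13 carbonic anhydrases, 3 were lower and 1 was higher, and apart from CA2 the brightest probe sets passed by a small margin. With median centring, 1 was lower and 4 were higher. CA9, the hypoxia-induced enzyme of tumor cells, had a log2 difference of -0.33 (adjusted p = 0.049 from limma) and lost its call without any 1 of 5 arrays, all but shEV replicate 3 (adjusted p from 0.061 to 0.14). Its other 2 probe sets were lower too, with -0.26 (adjusted p = 0.012) and -0.37 (adjusted p = 0.0040 from limma on the probe sets). CA6 was just past the threshold with 0.24 (adjusted p = 0.049 from limma) and CA3 had -0.18 (adjusted p = 0.041 from limma). CA6 lost its call without any array but shEV replicate 1, and CA3 without shCIRC replicate 2 or 3 or shEV replicate 2 or 3 (adjusted p from 0.063 to 0.13 over both genes). The other probe sets of CA3 went against its fall, with 0.02 in the second brightest, which did not pass, and 0.13 in the dimmest, which was higher in shCIRC (adjusted p = 0.022 from limma on the probe sets). The other 2 probe sets of CA6 had 0.06 and -0.03 and did not pass. Of 12 sodium pump subunits and FXYD regulators, 3 were lower and the other 9 did not pass. With median centring, 2 were lower and 2 higher. ATP1B3, another beta subunit, had 0.04 and did not pass (adjusted p = 0.27 from limma), but was higher with median centring (0.12, adjusted p = 0.015). FXYD5 had -0.14 and lost its call without any 1 array but shCIRC replicate 2 (adjusted p from 0.057 to 0.083 from limma).

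**Figure D4:**
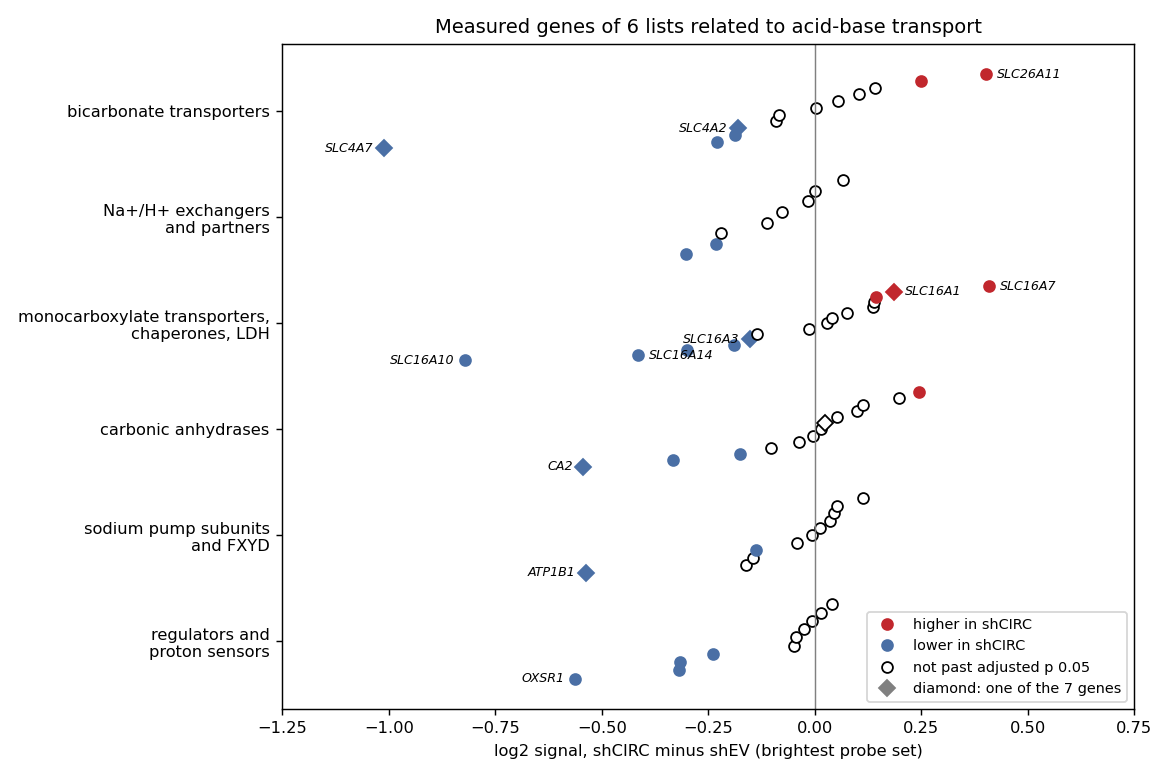
Log2 signal difference, shCIRC minus shEV (x axis), for the measured genes of 6 lists, 1 mark per gene, ordered within a list with 4 genes left out. Diamonds are members of the 7 and open marks did not pass an adjusted p of 0.05. SLC4A7 lies farthest to the left at -1.01 and the higher genes shown reach 0.41 at most.

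The genes whose levels followed SLC4A7 most closely over the 6 arrays were AKAP12, TTL and PDPR. Likeness was the root mean square difference between the deviations of each gene from its own mean, and it was 0.029, 0.040 and 0.041 log2 units. AKAP12, a scaffold for protein kinase A, had a log2 difference of -1.06, TTL, which adds tyrosine to tubulin, had -1.0, and PDPR, a regulator of pyruvate dehydrogenase phosphatase, had -1.07. With 2 groups of arrays the measure mostly picks genes with a fall of the same size. For PDPR its second brightest probe set fell by less, -0.26.

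Over all 49395 deposited probe sets, the 6 arrays had medians of 6.82 to 6.85 on the log2 scale. Median centring used the medians of the 15894 genes instead. Across the probe sets that name 1 gene, the arrays correlated by 0.998 to 0.999 within a group and 0.987 to 0.988 between groups. Signs of the cells and of the RNA were read from the same arrays. Of the listed markers, 6 of 9 for colon epithelium, 3 of 6 for immune cells and 3 of 6 for fibroblasts were measured. The epithelial genes KRT18, EPCAM and KRT8 were brighter than 89.8%, 52.5% and 48.2% of all genes. The 10 measured markers of immune cells, fibroblasts and endothelium lay between 10.7% and 33.7% on that scale and had adjusted p-values of 0.053 or above (limma). KRT18 and EPCAM were themselves lower in shCIRC, with log2 differences of -0.30 and -0.46, and KRT8 was higher, with 0.53. Every probe set of KRT8 and KRT18 carries the suffix for probes that may bind other transcripts. Of the colon markers, CDX2 was brighter than 50.7%, CDX1 than 23.8% and LGALS4 than 11.5% of all genes, and these 3 did not pass. The 3′ minus 5′ signal of the GAPDH control probe sets, which rises as RNA degrades, was -0.30 ± 0.02 in shCIRC and -0.16 ± 0.02 in shEV (SD, n = 3 each), and that of ACTB was -0.01 ± 0.03 in shCIRC and 0.13 ± 0.02 in shEV. Their part in the differences of the 7 genes was not tested. In bulk RNA such as this, fewer cells that express a gene and less RNA per cell cannot be told apart.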

How the data were processed

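RNA of 3 shCIRC and 3 shEV samples of RKO cells (6 µg each) was hybridized to Affymetrix PrimeView arrays. Per the authors' methods, arrays were brought to a common distribution in R by quantile normalization, and log2 values per probe set were deposited. The submitters' processing notes name GCOS 1.4, and how background was corrected was not given in the sources used here. A deposited annotated table also holds the authors' own comparison, in columns of p-value, FDR, log2 change, fold ratio and signed fold score, none of which was used. Of 49395 deposited probe sets, the annotated table holds 39269, and the remainder have no gene name here. Of these 39269 probe sets, 73 controls, 1539 naming several genes and 199 naming none were left out. Symbols were updated by Entrez number through RefSeq (37380 of 37458 probe sets matched). The brightest probe set stood for each gene, and 15894 genes were fitted with limma 3.58.1 in R 4.3.3 (lmFit, eBayes, Benjamini-Hochberg). The probe sets were fitted together as well. The fit was also run on simulated data with few changed genes and independent noise. That setting differs from these arrays, so the run does not bear on the calls here. The number of arrays limits the precision.

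Named were the 7 genes with all their probe sets, 9 partner genes whatever their values, up to 3 further passing genes of each list with the largest change (SLC4A8 and the neighbours of SLC4A7 were added after their values were seen), and the 3 genes most like SLC4A7. For 4 genes of the lists the values are not reported here, and they stay in the counts. The members and lists were chosen with earlier results of these data known. Alternatives covered scaling, filters, probe set use, tests, thresholds, a replicate block, and each array left out in turn.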

Additional observations from a re-analysis of the deposited data

How the results depend on the processing

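SLC4A7, CA2, ATP1B1 and SLC16A1 kept their direction and their call under all 17 alternatives run for each gene, with log2 differences of -1.24 to -0.94, -0.57 to -0.47, -0.56 to -0.47 and 0.15 to 0.42. CA2 has 1 probe set, so the mean of its probe sets and the second brightest probe set only repeat its main value. The 17 leave out the stricter thresholds, and SLC16A1, with a fold of 1.14, does not reach 1.3. Leaving out 1 array gave -1.05 to -0.98 for SLC4A7. Of the 7 genes, median centring gave 3 lower and 2 higher calls, and a fold above 1.3 gave 3 lower and 0 higher. Over all genes, a fold above 1.3 left 1498 lower and 1183 higher, and counting each probe set on its own gave 9223 lower and 9606 higher. SLC4A2 also lost its call with the methods' t-test (adjusted p = 0.056 after Benjamini-Hochberg). The sign turned for CA12 (-0.023), CA3 (0.018), CHP1 (0.045) and ATP1B3 (-0.10) with the second brightest probe set, a setting chosen after seeing the data, for ATP1B3 (-0.025) with the mean of its probe sets and for AHCYL1 (-0.014) with cyclic loess. The cause was not tested. The labels give both groups replicate numbers 1 to 3, but nothing says that a number marks a shared culture. Deviations of same-numbered arrays correlated by 0.066, 0.086 and 0.099 across genes, and those of differently numbered arrays by -0.083 to -0.011. Each array thus correlated best with its own number. The main fit did not treat the arrays as pairs, and whether a number marks a shared step was not tested. With the replicate block, 3591 genes were higher and 3842 lower, the 7 genes gave the same 5 lower calls and 1 higher call, and SLC4A7 had -1.01. An unfiltered table was not run, because the additional probe sets of the value table have no gene name here. The brightest probe sets of CA3, CA6 and CA9 were brighter than 24.2%, 20.6% and 32.5% of all genes.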
